A study of Mus musculus with 2 samples.

Results

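Among single tumour cells of a pool of mouse tumours, 581 of 5810 (10%) were set apart by high transcript levels of 7 genes, Ereg, Ptgs2, Lif, Il1rl1, Slurp1, Rgs16 and Rcan1, and these 581 cells are the subject here. A barcode was taken as a tumour cell when it held at least 500 genes, under 15% mitochondrial UMIs (unique molecular identifiers, each a counted transcript molecule), at least 3 UMIs of the keratin genes Krt8 and Krt18 together and 0 UMIs of the leukocyte gene Ptprc. Of the 9747 barcodes in the matrix, 8784 passed the first 2 limits and 5810 passed all of them. The members are the 10% of tumour cells with the highest summed level of the 7 genes in CPM (UMIs scaled to 1000000 gene UMIs), and the other 5229 tumour cells are the comparison. The 10 members nearest the limit had summed levels of 3477 to 3506 CPM and the 10 nearest cells below it 3458 to 3477 CPM, so the limit lies within a continuous range. The median member had 4551 CPM and the median other tumour cell 920 CPM, and 196 tumour cells had none of the 7 transcripts.

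The study, by its title, concerns inhibitors of ACSS2 (the enzyme that makes acetyl-CoA from acetate) in triple negative breast cancer. By the labels, 4000 to 6000 live cells from each of 3 vehicle and 3 ACSS2i samples were joined on 1 lane, and an expression and an antibody tag library were read from the same 9747 barcodes. All 6 samples share the tissue label "tumor" and the strain label "NGS mouse". The design text names Bmal1 status, which no label of this pool gives. The tumour line, dose, time and animal age are not given in the sources used here, nor is the arm of the 6 tags, named D0, D1, D4, U2, U3 and U4. No comparison of ACSS2i with vehicle was therefore made, and each tag is given by its own value. Since the members were chosen by transcripts of these same cells of 1 pool, the comparison with the other tumour cells is a description with no test. Its unit is the ratio of CPM in summed cells, members over others, with an exact 95% interval that covers counting error only.

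The 7 genes have separate known roles. Ereg encodes epiregulin, a ligand of the EGF receptor family, and Lif a cytokine of the interleukin 6 family that signals through Lifr and Il6st. Ptgs2 encodes cyclooxygenase 2, which commits arachidonic acid to prostaglandins, and Il1rl1 the receptor of interleukin 33. Slurp1 encodes a small secreted protein of the Ly6 family, Rgs16 a protein that shortens signalling by G proteins, and Rcan1 an inhibitor of the phosphatase calcineurin that is itself induced by calcineurin and NFAT. Epiregulin and prostaglandin E2 are known as paracrine signals of wounded and inflamed epithelium and of tumours. Several of these genes are known to be induced within hours by growth factor, stress or inflammatory signals. In GRCm38, by GENCODE M21, Ereg lies at chr5:91074622-91093646, Ptgs2 at chr1:150100031-150108227 and Lif at chr11:4257557-4272514, all on the plus strand. Il1rl1 lies at chr1:40429570-40465415 and Rgs16 at chr1:153740349-153745468 on the plus strand, Slurp1 at chr15:74724318-74728034 and Rcan1 at chr16:92391953-92470867 on the minus strand.

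The tables of reference promoters held 7 windows for 5 of the 7 genes (RefSeq, GRCm38.p6), with no entry for Ereg and Slurp1. The 250 bases before the start of Ptgs2, Lif and the inner start of Rcan1 are shown because these genes were high in the same cells and their windows held the most matches to motifs of factors whose transcripts are described below. Capitals mark GGAAA (the core bound by NFAT proteins), TGANTCA (the AP-1 motif) or TGACGTCA (the cyclic AMP response element) on either strand, so that TTTCC is GGAAA on the other strand. The Ptgs2 window is chr1:150099781-150100030 on the plus strand, the Lif window chr11:4257318-4257567 on the plus strand, and the Rcan1 window chr16:92400079-92400328 on the minus strand, inside the span of the gene.
Ptgs2: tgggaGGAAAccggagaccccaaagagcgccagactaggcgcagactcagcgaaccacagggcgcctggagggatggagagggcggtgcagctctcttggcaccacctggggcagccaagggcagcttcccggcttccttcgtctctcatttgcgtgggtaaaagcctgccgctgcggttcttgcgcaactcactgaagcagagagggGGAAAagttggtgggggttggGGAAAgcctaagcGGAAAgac
Lif: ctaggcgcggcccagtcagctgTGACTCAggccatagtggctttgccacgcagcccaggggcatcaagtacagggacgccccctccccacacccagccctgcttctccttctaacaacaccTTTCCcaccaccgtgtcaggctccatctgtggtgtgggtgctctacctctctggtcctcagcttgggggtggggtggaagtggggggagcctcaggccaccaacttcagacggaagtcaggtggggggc
Rcan1: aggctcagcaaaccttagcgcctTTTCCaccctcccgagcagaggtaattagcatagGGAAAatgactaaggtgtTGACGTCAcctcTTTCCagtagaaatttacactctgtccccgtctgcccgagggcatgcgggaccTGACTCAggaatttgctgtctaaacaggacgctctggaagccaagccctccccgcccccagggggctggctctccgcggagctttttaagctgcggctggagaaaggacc
The Ptgs2 window held 4 matches to GGAAA. The Lif window held 1 match to GGAAA and 1 to TGANTCA. The Rcan1 window held 3 matches to GGAAA, 1 to TGANTCA and 1 to TGACGTCA. Of the windows not shown, each of Il1rl1 held 1 match to GGAAA, and those of Rgs16 and the outer start of Rcan1 held no match. Over all 7 windows, 5 held GGAAA, 2 TGANTCA and 1 TGACGTCA. Of 32851 mouse promoter windows of the same length, 55.6% held GGAAA, 6.75% TGANTCA and 1.55% TGACGTCA at least once. The motifs were chosen after the transcript levels were seen, and a match describes the letters only.

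The genes that chose the cells differed in how widely they were detected. All 7 transcripts were seen in 192 members (33.0%) and 6 of them in 251 (43.2%). The median member held 36 UMIs of Ereg against 4 in the median other tumour cell, and 38 against 7 of Ptgs2. Il1rl1 had a median of 8 UMIs against 1, Rgs16 and Rcan1 7 against 1 each, and Lif 4 against 0. Slurp1 was concentrated in few cells, since its median was 0 in both groups and 321 members had none. The 85 members with at least 5 Slurp1 UMIs were found under every tag but U3, with 35 in U2, 19 in D1 and 18 among untagged cells. In these 85, the level of Il1rl1 was 858 CPM against 531 in the 321 members without Slurp1, while Ereg was 1474 against 1646 CPM. All of these genes are part of the sum that chose the cells, so these differences cannot be told apart from the choice.

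In summed cells, which is how the levels below are given, Ereg was at 1596 CPM in members and 345 in the other tumour cells. Ptgs2 was at 1705 and 396 CPM, Il1rl1 at 641 and 132, and Lif at 214 and 50.7. Rgs16 was at 375 and 109 CPM, Rcan1 at 362 and 116, and Slurp1 at 163 and 38.7. These differences follow from the choice of cells. Ereg in members was 1031 CPM in D0, 1555 in D1, 1358 in D4, 1710 in U2, 1648 in U3 and 1249 in U4. In the other tumour cells it was 306 CPM in D0, 358 in D1, 322 in D4, 469 in U2, 167 in U3 and 149 in U4. U2 was highest in both groups of cells, U3 and U4 were lowest among the others, and members and others did not overlap. Lif ran from 115 CPM (U3) to 232 (U2) in members and from 21.4 (U4) to 71.1 (U2) in the others. Slurp1 was the exception, since D0 members (35.1 CPM) lay below D0 other cells (38.9) and the 2 members of U3 had no Slurp1 UMI.

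**Figure D1:**
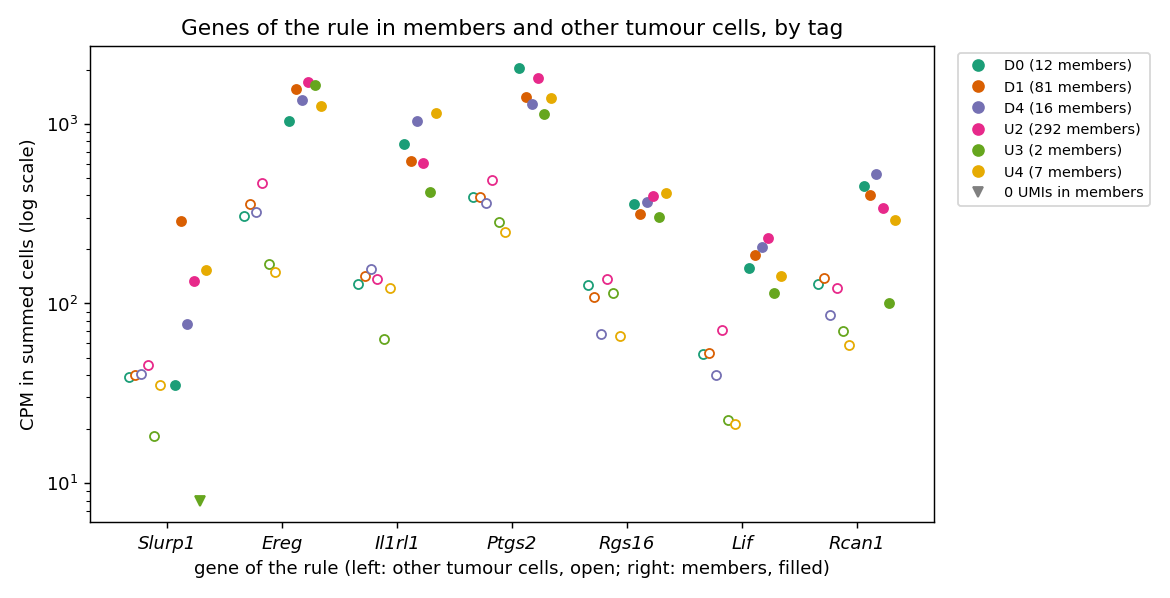
CPM of the 7 genes of the rule in summed cells of each tag, on a log axis, for the other tumour cells (open points) and the members (filled points), with the number of members per tag in the legend. For 5 of the 7 genes all filled points lie above all open points. For Rcan1 the 2 members of U3 lie among the open points at 100.3, and for Slurp1 the groups overlap, with D0 at 35.1 and U3 at 0 UMIs.

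For each of the 7 genes, cells were also chosen by the other 6 and the gene left out was read. The 7 genes were taken as a set with earlier results of these data known, so this describes the set and does not test it. Lif was then 3.96 times as high in the chosen cells as in the rest (95% interval 3.80 to 4.13), Il1rl1 3.12, Ereg 3.02, Ptgs2 3.02, Rgs16 2.97, Rcan1 2.69 and Slurp1 2.28. Lif, Ereg, Ptgs2 and Rgs16 were higher in the chosen cells of 6 of 6 tags and Il1rl1 and Rcan1 in 5 of 6. The chosen cells of U3 numbered only 1 (Il1rl1 left out) to 4 (Ereg left out). Slurp1 was higher in 3 of 6, at 4.04 in D1, 1.52 in U2, 1.79 in D4 and 0.90 in D0, with no Slurp1 UMI in the chosen cells of U3 and U4. Leaving out Ereg kept 443 of the 581 members (76.2%), leaving out Ptgs2 450 (77.5%), leaving out Il1rl1 501 (86.2%) and leaving out Lif 564 (97.1%). Ereg made up 31.6% and Ptgs2 33.7% of the members' summed UMIs of the 7 genes, against 4.24% for Lif and 3.22% for Slurp1.

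Members were unevenly spread over the tagged samples. They made up 17.4% of the tumour cells tagged U2 (exact 95% interval 15.6 to 19.3, 292 of 1677), 10% of D4 (5.82 to 15.7, 16 of 160) and 7.91% of D1 (6.33 to 9.74, 81 of 1024). The share was 7.19% in D0 (3.77 to 12.2, 12 of 167), 3.17% in U4 (1.28 to 6.42, 7 of 221) and 1.32% in U3 (0.161 to 4.70, 2 of 151). The interval of U2 lay above those of D1, D0, U4 and U3 and met that of D4 by a narrow margin. These intervals cover the counting error of cells only and not the spread between samples, so the tags are not ranked by them. U2 gave 50.3% of all members. Among tumour cells without a tag 6.96% were members (129 of 1854), and among those with more than 1 tag, which can be joined cells, 7.55% (42 of 556). The whole tumour population of each tag also differed in the 7 genes, with Ereg from 178 CPM (U4) over a median of 400 to 668 (U2) and Il1rl1 from 69.9 (U3) over 175 to 260 (D4).

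**Figure D2:**
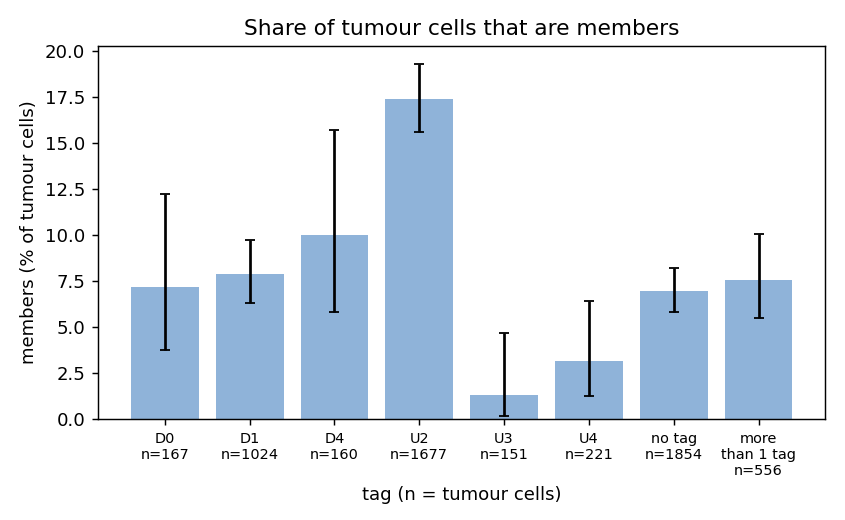
Share of tumour cells that are members (percent) for each tag, for cells without a tag and for cells with more than 1 tag, with exact 95% intervals that cover counting error only. U2 stands at 17.4% and U3 at 1.32%.

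Members were about as deep as the other tumour cells, with a median of 25257 UMIs and 4469 genes per cell against 25955 and 4601. Mitochondrial UMIs were 4.20% in the median member and 3.68% in the median other cell, and ribosomal protein transcripts were 13.3% of all UMIs against 16.6%. With tumour cells ranked by UMI count into 10 equal groups, the share of members was 10.3% in the shallowest group, 14.6% in the group at a median of 30208 UMIs and 4.65% in the deepest. Tumour cells were named by Krt8 and Krt18 alone. The other 13 genes of a list of 15 epithelial genes were under 10 CPM over all tumour cells. Epcam, Krt19, Krt7, Krt5 and Cdh1 had 0 UMIs in members, which allows up to 0.199 CPM, and Vim, the intermediate filament gene of mesenchymal cells, was at 6846 CPM in members and 6954 in the others. Krt8 was 866 CPM in members and 812 in the others, a ratio of 1.07 (1.05 to 1.09), and Krt18 was 163 and 226, a ratio of 0.72 (0.69 to 0.75). Krt16, a keratin gene outside that list, was at 26.1 CPM in members and 12.8 in the others, a ratio of 2.03 (1.82 to 2.27).

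Markers of other cell types were listed for both groups. The 7 fibroblast markers summed to 3864 CPM in members and 2882 in the others, a ratio of 1.34, and ran from 3249 to 8414 CPM over tags in members and from 2279 to 3071 in the others. Of the 5 compared, Pdgfra was higher past 1.5-fold (19.0 and 12.6 CPM, 1.51) and none lower, with Dpt at a ratio of 1.44, Col6a3 at 1.40, Dcn at 1.34 and Pdgfrb at 1.11. Most of the sum was the matrix proteoglycan gene Dcn (3411 and 2546 CPM). Under the minimum were Col1a2 (1.79 and 6.31 CPM) and Lum (0.0663 and 0.571), and none of the 7 was at 0. The 12 macrophage markers summed to 101 and 78.7 CPM, with tag ranges of 57.3 to 414 and 45.1 to 117. Cd14, the only 1 of them compared, was at 73.1 and 46.7 CPM, and without it the sum was lower in members. The mast cell markers, listed because mast cells express Il1rl1, summed to 3.11 and 3.44 CPM with Ms4a2, Fcer1a, Kit and Hdc at 0 in members. The 9 keratinocyte markers, listed because keratinocytes secrete Slurp1, summed to 29.7 and 36.9 CPM with Lor, Ivl, Krtdap, Flg, Dsg1a and Calml3 at 0. T cell markers summed to 4.84 and 4.39 CPM with Cd4 and Foxp3 at 0, and neutrophil markers to 11.5 and 10.0 with Csf3r, Retnlg and Ly6g at 0. Markers of dendritic cells (10.5 and 24.7 CPM), endothelial cells (4.64 and 7.51), B cells (2.72 and 4.15) and NK cells (1.26 and 2.36) were lower in members. The part of fibroblast and macrophage transcripts in the results below was not tested. In 1553 cells with Ptprc and under 3 keratin UMIs (median 2239 UMIs), Slurp1 was at 2.06 CPM, Lif at 15.5, Il1rl1 at 17.3, Ereg at 61.1 and Ptgs2 at 211, all under the level of the other tumour cells.

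Outside the 7 genes, 7136 genes with at least 10 CPM over all tumour cells were compared, and their median ratio was 0.975. Past 1.5-fold, 220 were higher in members (3.08%) and 313 lower (4.39%). Of these, 217 (3.04%) and 312 (4.37%) had the same direction in both U2 and D1, the tags with at least 20 members. To set the tags on an equal footing, the top 10% were also taken inside each tag (15 to 168 cells), and 126 of the higher genes (1.77%) and 119 of the lower (1.67%) then kept their direction in 6 of 6 tags. The range over tags given below refers to this choice. Counts of called genes in the lists below stand against the shares of 3.08% higher and 4.39% lower over all genes compared.

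The 10 highest genes were led by early response genes. Nr4a1, a nuclear receptor gene induced within minutes to hours of a stimulus, was at 308 CPM in members of U2 and 321 in those of D1, against 116 and 100.2 in the other cells of those tags. Over all cells it was at 298 and 95.3 CPM, a ratio of 3.12 (3.02 to 3.23), and over tags the ratio ran from 1.60 to 3.42. Its relative Nr4a2 had a ratio of 3.06 (113 and 37.1 CPM), but was not higher in every tag (0.96 to 5.15). Bmp2, a bone morphogenetic protein, was at 30.8 and 10.3 CPM, a ratio of 2.99, with none of its transcript in the chosen cells of 1 tag. Thbs1, the matrix protein thrombospondin 1, was at 141 and 50.3 CPM (2.80, 1.49 to 3.11 over tags), and Rnd1 at 34.4 and 12.4 (2.76). Tnfaip3, which encodes the NF-kB inhibitor A20, was at 258 and 98.5 CPM (2.62, 2.0 to 3.27 over tags). Tnfaip3 in members ran from 161 CPM (U4) to 266 (U2), and in the others from 33.6 (U4) to 125 (U2), so the groups did not overlap. The circadian deadenylase gene Noct (2.61), Mustn1 (2.61), the matrix gene Spon2 (2.60) and the long noncoding gene Gm12840 (2.68) completed the 10. Of these, Spon2 was higher in only 4 of 6 tags (0.77 to 2.88).

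**Figure D3:**
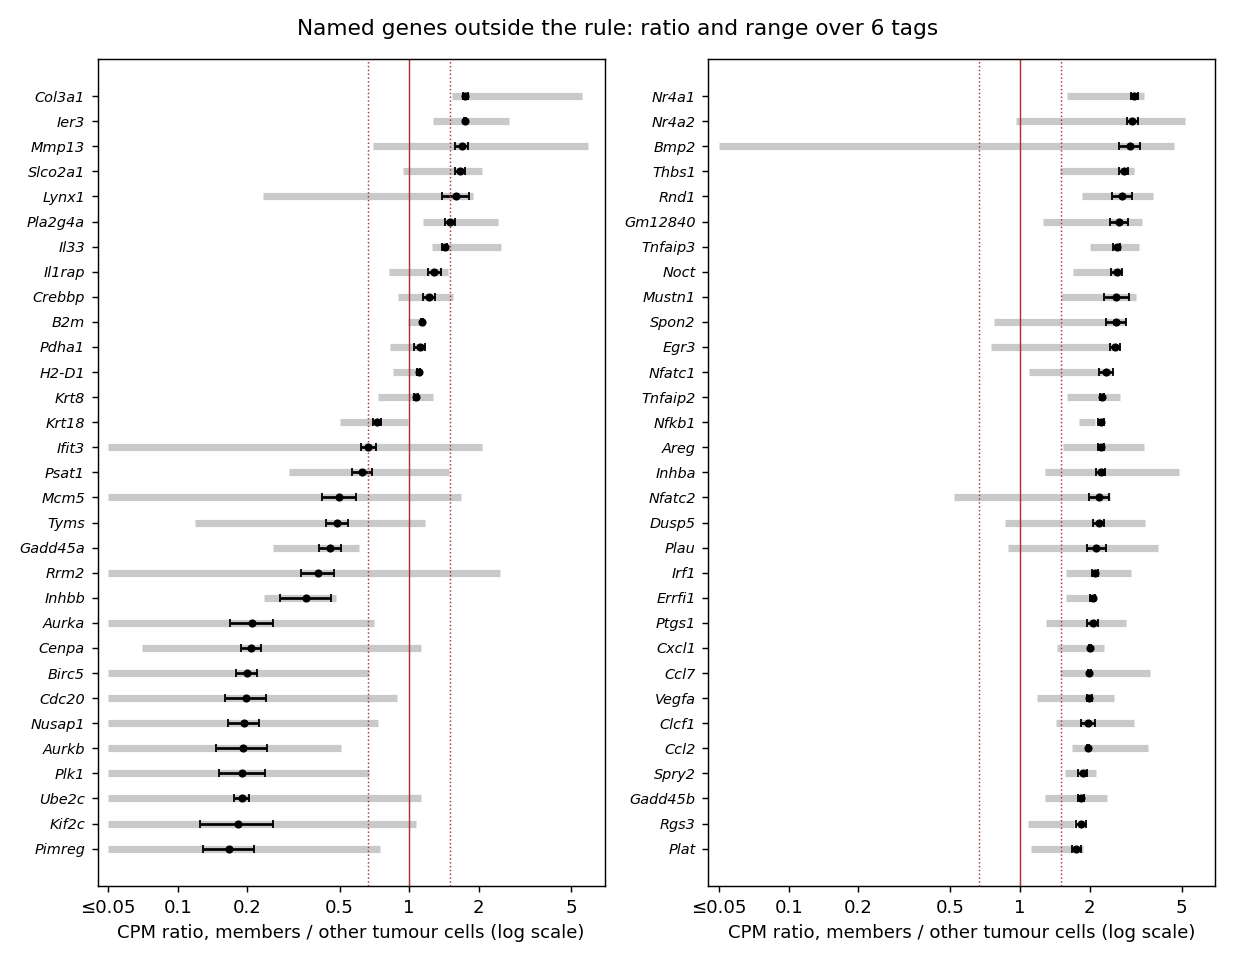
Ratio of CPM in members over other tumour cells for the named genes outside the rule, on a log axis, with exact 95% counting intervals (black) and the range over 6 tags when the top 10% are taken inside each tag (grey, drawn no lower than 0.05). Dotted lines stand at 1.5-fold in either direction. Nr4a1 lies at 3.12 and Pimreg at 0.17.

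Early response and AP-1 genes lay mostly above the other cells, but the founding AP-1 genes only a little. Of 23 compared, 10 were higher past 1.5-fold, against 3.08% of all genes compared, and none lower, and the median ratio was 1.41 against 0.975 over all genes. Egr3, a zinc finger factor induced through NFAT and other signals, was at 144 and 55.9 CPM (2.57). It was higher in 5 of 6 tags (0.75 to 2.65). Btg2 (2.15), Zfp36 (1.76), Fosl2 (1.59), Atf3 (1.55), Fosl1 (1.54), Egr2 (1.53) and Klf10 (1.51) also passed. Fos had a ratio of 1.20 and Jun 1.08. These genes were taken from the list after their values were seen, as are the other list members below that are not among the 3 largest of their list.

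Genes of the NF-kB pathway were higher in members, its inhibitors included. Of 14 compared, 7 were higher, against 3.08% of all genes compared, none was lower and the median ratio was 1.54. Besides Tnfaip3 these were Tnfaip2 (705 and 311 CPM, 2.27), Nfkbiz (1.85) and the subunit genes Nfkb1 (287 and 128, 2.24) and Rel (66.6 and 33.5, 1.99). The inhibitor genes Nfkbie (1.83) and Nfkbia (1.71) completed the 7. Nfkb1 was higher in 6 of 6 tags, from 1.80 to 2.11. Chemokines and colony stimulating factors had 5 higher of 8, against the same 3.08%, and none lower, with a median of 1.56. Cxcl1, which attracts neutrophils, was at 4295 and 2137 CPM (2.01), and the monocyte-attracting Ccl7 and Ccl2 at ratios of 1.99 and 1.97. Ccl2 in members was 2342 CPM in U2 and 2639 in D1 against 1414 and 1555 in the others, but in the 2 members of U3 it was below the other cells (272 and 502). Csf1 (1.56) and Cxcl2 (1.55) were the remaining ones.

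Of the EGF family, Ereg was not alone. Areg (amphiregulin), its neighbour on chromosome 5, was at 373 and 167 CPM (2.23, 2.17 to 2.30) and higher in 6 of 6 tags (1.54 to 3.43). Over the members of each tag Areg ran from 100.3 CPM (U3) to 475 (D1), and over the others from 70.0 (U4) to 190 (D1), so the ranges met. Hbegf was at 197 and 151 CPM (1.31), and Egf, Tgfa, Btc, Epgn and Nrg1 were under the minimum of 10 CPM. The receptor side was low and level, with Egfr at 7.88 and 7.85 CPM, Erbb2 at 2.39 and 2.56, and Erbb4 without a UMI. Errfi1, a feedback inhibitor of the EGF receptor, was higher at 524 and 254 CPM (2.06) and was the only one of 4 compared to pass. Feedback genes of the ERK pathway, which lies below this receptor, had a median of 1.26. Of 11 compared, 4 were higher, against 3.08% of all genes compared, and none lower. These were the phosphatase gene Dusp5 (114 and 52.0 CPM, 2.18), Spry2 (131 and 70.4, 1.87), Ier3 (3470 and 1988, 1.75) and Phlda1 (1646 and 1066, 1.54). The ratio of Dusp5 was 0.86 in the tag where it was lowest.

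Prostaglandin genes other than Ptgs2 were also higher in part. Of 5 compared, 3 were higher, against 3.08% of all genes compared, and the median was 1.5. Ptgs1, the constitutive cyclooxygenase gene, was at 98.5 and 47.8 CPM (2.06, 1.94 to 2.18), and in members it ran from 72.3 (D4) to 135 (U4), above the 30.7 (U3) to 55.5 (D4) of the others. Slco2a1, a prostaglandin importer, was at 139 and 83.9 CPM (1.66), and Pla2g4a, the phospholipase that frees arachidonic acid, at 115 and 76.3 (1.5). Pla2g4a lies at the fold limit. Ptges3 was at 274 and 323 CPM (0.85), and Ptges, the inducible prostaglandin E synthase, was under the minimum at 9.87 and 6.09. Of the prostaglandin E2 receptor genes, Ptger4 was at 5.30 and 4.62 CPM, Ptger1 at 2.39 and 1.52, and Ptger2 and Ptger3 had no UMI in members. In the Ptprc-positive cells Ptger4 was at 23.1 CPM and Ptger2 at 6.40.

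Most receptor and ligand partners of Lif and Il1rl1 did not pass 1.5-fold. Of 8 genes of the LIF and interleukin 6 family, Clcf1, a cytokine gene of the same family, was higher at 58.6 and 29.7 CPM (1.97, 1.43 to 3.1 over tags) and none lower. The LIF receptor gene Lifr was at 20.4 and 24.8 CPM (0.82, 0.73 to 0.93) and lower in 6 of 6 tags, its partner Il6st at 71.8 and 61.1 (1.17), and Socs3, a feedback gene of this pathway, at 240 and 171 (1.40). Il6 itself stood under the minimum at 13.4 and 4.43 CPM. None of 6 compared genes of the interleukin 1 and 33 family passed 1.5-fold. Il33, the ligand of the receptor that Il1rl1 encodes, came nearest at 572 and 401 CPM (1.43, 1.39 to 1.46), and the co-receptor gene Il1rap was at 68.3 and 53.1 (1.29). With cells taken inside tags, Il33 was higher in 6 of 6 tags (1.25 to 2.49), although the 12 members of D0 had 280 CPM against 379 in the other cells of D0. Il33 was at 39.6 CPM in the Ptprc-positive cells, so ligand and receptor transcripts were both found in tumour cells.

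Of the calcineurin and NFAT genes, 2 of 10 compared were higher, against 3.08% of all genes compared, and none lower, with a median of 1.09. The factor genes Nfatc1 (65.7 and 28.0 CPM, 2.34) and Nfatc2 (31.7 and 14.4, 2.20) were higher, Nfat5 was at a ratio of 1.35 and Nfatc3 at 1.06. The catalytic subunit genes of calcineurin, Ppp3ca (419 and 370 CPM, 1.13) and Ppp3cb (1.03), and its regulatory subunit gene Ppp3r1 (1.04) did not pass. Nfatc1 in members ran from 38.6 CPM (U4) to 80.6 (D0), above the 15.6 (U4) to 36.1 (D4) of the others, and it was higher in 6 of 6 tags (1.09 to 2.48), while Nfatc2 was higher in 5 of 6. Rgs3 was the only other RGS gene past 1.5-fold of 4 compared (120 and 65.1 CPM, 1.83), and of the Ly6 family only Lynx1 of 5 (17.7 and 11.1, 1.59), which was higher in 3 of 6 tags.

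Genes of matrix breakdown and repair were higher in 7 of 9 compared, against 3.08% of all genes compared, with none lower and a median of 1.59. Plau, the urokinase gene, was at 36.8 and 17.2 CPM (2.14), Plat, the tissue plasminogen activator gene, at 160 and 91.0 (1.75), and the collagenase gene Mmp13 at 78.4 and 46.5 (1.69). Itga5 (1.60), Timp3 (1.57) and Mmp3 (1.51) were among the others that passed. Of 14 mesenchymal genes, Col3a1 was higher (696 and 397 CPM, 1.75) and none lower. Col3a1 was at 3899 CPM in the 2 members of U3. The summed fibroblast markers, given above, were also higher in members, and their part in this value was not tested. In the TGF-beta and BMP list 2 of 14 were higher, Bmp2 and the activin subunit gene Inhba (152 and 68.1 CPM, 2.23). The other activin subunit gene, Inhbb, was lower (4.44 and 12.3 CPM, 0.36) in 6 of 6 tags. Id1 and Id2 were also lower over all cells (0.66 each), but with cells taken inside tags Id1 was lower in 2 of 6 and Id2 in 4 of 6.

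Among stress and interferon lists few genes passed. Of 11 hypoxia genes, Vegfa (vascular endothelial growth factor A) was higher, at 495 and 249 CPM (1.99), and the median was 1.10. Vegfa in members ran from 442 CPM (D1) to 786 (U4), above the 166 (U4) to 310 (D0) of the others. The paired stress genes Gadd45b and Gadd45a went apart. Gadd45b, an NF-kB target, was at 359 and 195 CPM (1.84) and Gadd45a, a p53 target, at 23.5 and 51.7 (0.45, 0.26 to 0.60 over tags), and of the other 9 genes of the p53 list none passed. Irf1 was the only higher one of 10 interferon gamma genes (422 and 200.2 CPM, 2.11), none of 10 MHC class I genes passed (B2m 1.14, and H2-D1 1.10, which can share reads with related class I genes), and Ifit3 was the only lower one of 9 type I interferon genes (0.67). Psat1 was lower of 8 integrated stress response genes (0.62), and Ifit3 and Psat1 were each lower in 4 of 6 tags. None of 7 acetate and acetyl-CoA genes passed, with Pdha1 at 1.11 and Crebbp at 1.22. Acss2, the target of the inhibitor, was under the minimum at 1.79 CPM in members and 1.93 in the others (0.93, 0.60 to 1.38).

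The lower genes were led by mitosis. All 16 genes of the G2/M and mitosis list were lower past 1.5-fold, with a median ratio of 0.23, against 4.39% of all genes compared, and so were 8 of 12 genes of the G1/S and replication list, with a median of 0.60. Ube2c, which works with the anaphase-promoting complex, was at 48.6 and 258 CPM (0.19, 0.17 to 0.20). In members Ube2c was 3.51 CPM in D0, 4.38 in D4, 39.1 in D1, 64.4 in U2, 90.1 in U4 and 315 in U3, and in the others it ran from 204 (D0) to 318 (D1). Members of 5 tags lay below all groups of other cells and the 2 members of U3 did not. The 10 lowest genes were all of the mitotic apparatus, Pimreg (0.17), Kif2c (0.18), Ube2c, Plk1 (0.19), Aurkb (0.19), Nusap1 (0.19), Cdc20 (0.20), Birc5 (0.20), Cenpa (0.21) and Aurka (0.21). Of replication genes, the ribonucleotide reductase gene Rrm2 was at 10.1 and 25.2 CPM (0.40), the thymidylate synthase gene Tyms at 22.4 and 45.9 (0.49) and the helicase gene Mcm5 at 9.81 and 19.7 (0.50).

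The mitotic difference was not equal over the tags. With cells taken inside each tag, the summed G2/M list was at 62.7 CPM in the chosen cells of D0 against 1400 in the rest, at 96.4 against 1584 in D4, at 416 against 2008 in D1 and at 436 against 1597 in U2. In U4 it was 1217 against 1770 (22 chosen cells), and in U3 1383 against 1427 (15 chosen cells). The chosen cells were thus far below the rest in 4 tags and near the rest in U3. The G1/S list was at 0.41 to 0.66 times the rest in D0, D1, D4 and U2, at 0.86 in U3 and at 1.57 in U4, where it was higher in the chosen cells (637 against 406 CPM). The NF-kB list was higher in the chosen cells of 6 of 6 tags, at 3169 CPM against 1585 in U3, 2672 against 1358 in U4 and 5240 against 3240 in U2.

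The comparison was repeated in cells low in mitotic transcripts. Under the median of the G2/M list lay 63.2% of members and 48.5% of the others. Among these cells alone (367 members and 2538 others), 212 genes were higher and 79 lower. Of the 220 genes higher over all cells 162 were higher here as well, and of the 313 lower genes 39 were lower here as well. The median ratio there was 1.67 for the NF-kB list, 1.97 for the chemokines and 0.97 for the replication list. The loss of lower calls is fixed in part by choosing cells with that list.

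The lists changed with the summed level of the 7 genes in different ways. From the lowest decile of tumour cells to the members, the NF-kB list went from 856 to 4620 CPM, the chemokine list from 899.6 to 8560 and the AP-1 list from 5310 to 15888, with no sharp step at the limit. These deciles mix tags that differ in level and in their share of members. Inside tags the chosen cells were at 1.39 to 2.0 times the rest for the NF-kB list and 1.44 to 2.43 for the chemokines. For the AP-1 list they were nearer the rest, at 1.05 in D0 and D4, 1.25 in U2, 1.28 in D1 and up to 1.55 in U4. Tnfaip3 alone went from 11.5 to 258 CPM and Nr4a1 from 15.6 to 298. The G2/M list lay between 1629 and 1959 CPM in the 6 lowest deciles, then at 1393, 1311 and 838, and at 416 in the members. Over the mixed tags, the mitotic list was thus lower at the upper end of the range, while the NF-kB and AP-1 lists differed over all of it.

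**Figure D4:**
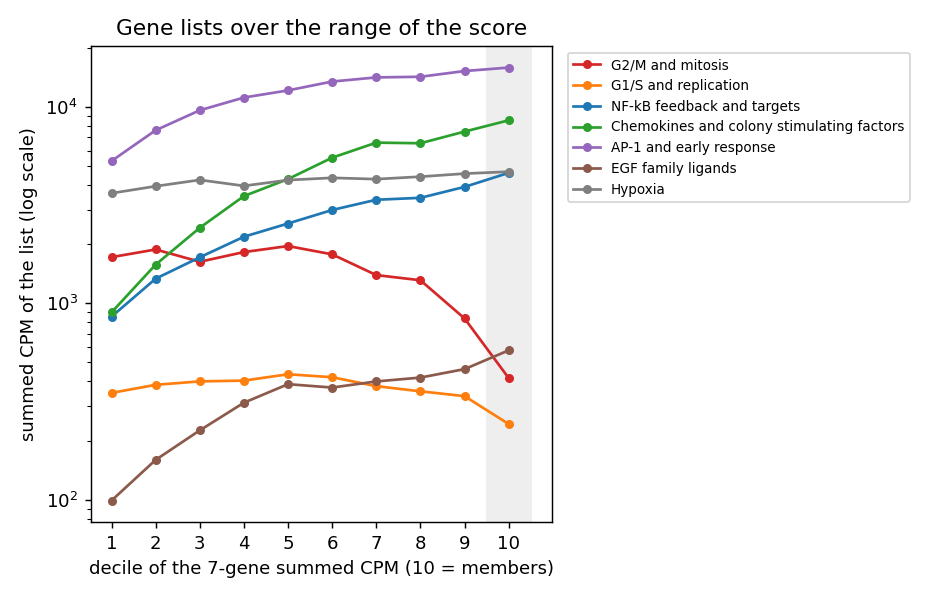
Summed CPM of 7 gene lists (log axis, genes of the rule left out) in deciles of the tumour cells by the summed CPM of the 7 rule genes, from the lowest (1) to the members (10, shaded). The NF-kB list goes from 856 to 4620 CPM and the G2/M list from 1719 to 416.

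The list levels differed between cells chosen by each of the 7 genes singly. These genes differ in detection, with a median in members from 38 UMIs (Ptgs2) to 0 (Slurp1), and the choices were not split by tag. The part of detection and of tags in these differences was not tested. The 581 tumour cells highest in Ptgs2 had a median ratio of 0.09 for the G2/M list, those highest in Ereg 0.42, in Lif 0.53, in Rgs16 0.59, in Slurp1 0.68, in Il1rl1 0.83 and in Rcan1 0.90. With all 7 genes but Ptgs2 it was 0.38, and with all but Ereg 0.22. For the chemokine list the order was different, with Lif at 1.88, Ereg at 1.71, Rgs16 at 1.67, Rcan1 at 1.64, Il1rl1 at 1.36, Ptgs2 at 1.21 and Slurp1 at 1.11. Cells highest in Slurp1 had a ratio of 1.0 for the NF-kB list and 1.03 for the early response list. The mitotic level was thus lowest in cells chosen by Ptgs2, and the chemokine level highest in those chosen by Lif and Ereg.

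**Figure D5:**
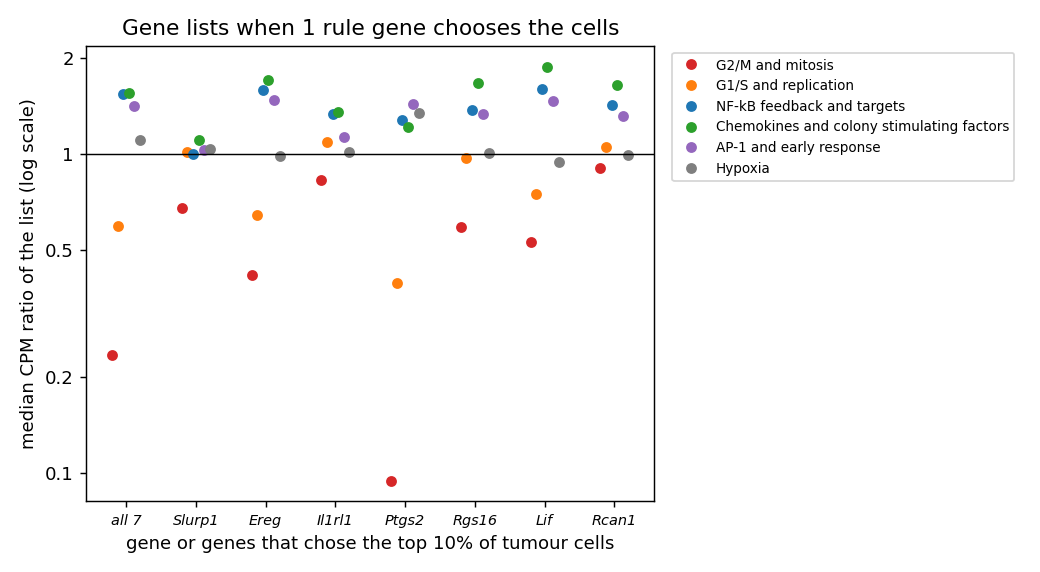
Median CPM ratio (log axis) of 6 gene lists in the top 10% of tumour cells over the rest, when the cells are chosen by all 7 genes or by 1 of them. The G2/M list lies at 0.09 for Ptgs2 and 0.90 for Rcan1, and the chemokine list at 1.88 for Lif and 1.11 for Slurp1.

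Members differed in the same way among themselves. The transcript with most UMIs among the 7 was Ptgs2 in 260 members, Ereg in 259, Il1rl1 in 41, Slurp1 in 11, Rgs16 and Rcan1 in 5 each and Lif in none. Ereg-led members had 551 CPM of the G2/M list against 201 in Ptgs2-led members, a ratio of 2.75 (2.58 to 2.93), and 10087 against 7198 CPM of the chemokine list (1.40). Ptgs2-led members had more of the hypoxia list (5189 against 4106 CPM), of Thbs1 (224 against 77.9) and of Mef2c, a transcription factor gene (78.8 against 30.1). The G2/M difference between these groups was found in U2 (757 against 175 CPM) and D1 (379 against 93.7), but not among members without a tag (121 against 141, a ratio of 0.86 with an interval of 0.69 to 1.07). The chemokine and hypoxia differences had the same direction in U2, in D1 and in the untagged members.

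Tumour cells chosen by other genes in the same way overlapped with the members to different degrees. Of the 581 tumour cells highest in Areg, Nppb and Krt16, 141 were members (24.3% of each set), and of the 581 highest in Gadd45a and Snhg12, 19 were members (3.27% of each set), against the 10% of all tumour cells that are members.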

How the data were processed

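The data are 1 pool of 6 mouse tumour samples with an expression and an antibody tag library. The deposited matrix holds raw UMI counts; the authors used Cell Ranger and build mm10, per the submitters' processing notes, and software 3.1.0 wrote the matrix, per the file headers. The sources used here do not name the annotation. Tags were assigned with HTODemux (Seurat 5.3.0, R 4.3.3, positive quantile 0.99, seed 42). Barcodes with more than 1 tag (865 past the filters) stay in the main comparison, as the rule for members does not remove them, and are left out in an alternative. UMIs were summed over cells (numpy 2.4.6, scipy 1.17.1) and given as CPM of 15092880 UMIs in members and 147220029 in the other tumour cells. Ratios carry exact conditional binomial 95% intervals and shares Clopper-Pearson intervals, both for counting error only. Genes under 10 CPM over all tumour cells were not compared, and 1.5-fold is the limit for a call. On simulated counts for 7136 genes, with changes set past the 1.5-fold limit, 100% of 200 changed genes were recovered and 0% of the unchanged were called. The simulation held counting error only, with no spread between cells or tags and no choice of cells. It checks the calculation and not the rate of false calls in these data.

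The members and gene lists were chosen with earlier results of these data known. The named genes are the 7 of the rule, the 10 highest and 10 lowest ratios with 1 direction in U2 and D1, the 3 largest called genes of each list (or the 2 with most UMIs where none was called) and Acss2. Alternatives were other scores, limits, filters, scalings, strata and leaving out each tag. Ratios inside tags, cells under the G2/M median, and choices by 1 gene or by 6 were added after the data were seen. Promoter sequences are from RefSeq (GRCm38.p6) and gene positions from GENCODE M21. A gene of the matrix breakdown and repair list is counted but not reported by name here.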

Additional observations from a re-analysis of the deposited data

How the results depend on the processing

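The 7 genes stayed higher in members with every alternative, but each alternative again chose the cells by these genes or by 6 of them. Most counts of genes past 1.5-fold stayed within 1.5 times the main counts of 220 higher and 313 lower. The lower count left that range with the score without Ptgs2 (187), with the top 20% of cells (204), with no minimum level (6591) and in cells under the G2/M median (79), and the higher count with no minimum level (1957). Leaving out the cells of each tag gave 216 to 234 higher and 244 to 322 lower genes, with 222 and 244 without U2, of which 190 and 226 were among the main calls. With the median-of-ratios scaling, which sets the median gene to a ratio of 1, the counts were 252 and 279. In cells under the G2/M median, Aurkb (1.54), Cdc20 (1.05), Cenpa (1.01), Mcm5 (1.32), Nusap1 (1.28), Pimreg (2.0), Psat1 (1.04) and Tyms (1.09) had ratios above 1, and the cause was not tested. Of 54 named genes past 1.5-fold, 36 stayed past it in all 26 settings. Ifit3 passed in 10 and Pla2g4a in 12. Mmp13 passed in 24, but not without the cells of D0 and not in cells under the G2/M median. No paired analysis was possible because both libraries come from 1 pool and no test was made. Depth limits the small tags most, with 2 members in U3 and 7 in U4. Of 33 series of values over the 6 tags, among them the member share and the 7 rule genes, 0 had an outlying tag by Dixon's criterion. With 6 tags only a gap of more than 0.625 of the range counts, and for the member share the gap of U2 was 0.461. The result therefore does not show that the tags are alike.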

Other observations

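Among the highest genes outside the lists and the named genes, several encode enzymes and matrix proteins, and these were chosen after their values were seen. Slc7a2, a transporter of arginine, was at 258 CPM in members and 99.2 in the other tumour cells, a ratio of 2.60 (2.51 to 2.69), and was higher in 6 of 6 tags with cells taken inside tags (1.48 to 2.63). Nos2, the inducible nitric oxide synthase that uses arginine, was at 52.8 and 21.8 CPM (2.42). Nos2 was at 62.3 and 24.8 CPM in U2, but at 19.9 and 20.6 in D1, so its difference was not seen in both of the larger tags. Has1, a hyaluronan synthase, was at 37.8 and 15.2 CPM (2.49) and higher in 5 of 6 tags. The collagen gene Col27a1 (55.9 and 23.6 CPM, 2.37) and the interferon-inducible Ifi205 (128 and 52.0, 2.46) were higher in 6 of 6 tags, and Malt1, a protease gene of NF-kB signalling (76.1 and 32.2, 2.36), in 5 of 6.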
